A study of Mus musculus with 12 samples.

Results

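Necroptosis and pyroptosis are lytic forms of cell death, and 10 of their genes were followed in mouse hearts after cisplatin (CDDP) with and without the innate immune adaptor STING. The 10 genes, Ripk1, Ripk3, Mlkl, Zbp1, Gsdmd, Nlrp3, Casp1, Casp4, Pycard and Il18, were taken by symbol from 55885 genes listed in the expression table, and each symbol had 1 row. RNA-seq was done on hearts of male C57BL/6 mice (C57BL/6J in the methods), 8 weeks old at the start, with 3 hearts in each of 4 groups. Wild-type mice without cisplatin (Saline) and wild-type mice given cisplatin (CDDP) were compared with Tmem173-/- mice, which lack STING, without (STING-/-) and with cisplatin (STING-/-+CDDP). Cisplatin, a platinum drug that crosslinks DNA, was injected into the abdomen at 6 mg/kg on days 1, 8 and 15, and hearts were taken on day 22. Hearts without cisplatin carry the label untreated, although the methods mention saline injections. Tmem173 (Sting1) was deleted in the whole animal and not in 1 cell type, and the RNA is that of whole hearts.

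In necroptosis, the kinase RIPK1 or the nucleic acid sensor ZBP1 engages the kinase RIPK3, which phosphorylates MLKL, and MLKL then breaches the plasma membrane. In pyroptosis, a sensor such as NLRP3 assembles with the adaptor ASC, the product of Pycard, and caspase-1 into an inflammasome, and caspase-1 cleaves gasdermin D, the pore-forming protein, and the cytokine IL-18. The product of Casp4, known in the mouse as caspase-11, cleaves gasdermin D without that platform after binding bacterial lipopolysaccharide in the cytosol. STING signalling is known to raise transcription of interferon-stimulated genes, and Zbp1 is one of them. All these steps run on proteins, and transcript levels do not report whether a kinase or caspase was active.

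Of the 10 genes 9 could be tested, and 3 of these were called with cisplatin in wild-type hearts, where 18.9% of all tested genes were called. Zbp1 and Pycard fell, by 2.32-fold and 1.95-fold in mean TPM, and Casp4 rose 2.40-fold. All 3 calls were lost without the filter on low values, or when these 2 groups alone were fitted. In STING-/- hearts Zbp1 fell again, by 3.79-fold, while Casp4 had means of 4.75 TPM without and 4.73 TPM with cisplatin. None of the 9 tested genes passed between CDDP and STING-/-+CDDP hearts, between untreated hearts of both genotypes, or for a difference between the genotypes in the response to cisplatin.

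Values are TPM, a unit in which reads on a gene are divided by its length and each heart is scaled to the same sum, so levels can be compared between genes. Read numbers cannot be had from TPM, so the depth of each heart is unknown. A heart had 19680 to 21024 genes above 0. Differences were tested on log2(TPM + 1) with limma over the 13815 genes that reached 1 TPM in 3 or more hearts, with Benjamini-Hochberg adjustment over those genes. A gene was called at an adjusted p under 0.05. The added 1 makes fold changes of genes at a few TPM, as most of the 10 are, smaller than on the TPM scale. Of the 10 genes 9 passed the filter on low values, and Nlrp3 did not. Each heart was a separate animal by its label, and hearts are named by group and number.

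Sting1 itself was lower in hearts of Tmem173-/- mice but not at 0. It was at 12.3, 6.59 and 6.50 TPM in Saline hearts and at 22.1, 5.62 and 8.81 TPM in CDDP hearts. In STING-/- hearts it was at 3.82, 5.96 and 2.87 TPM, and in STING-/-+CDDP hearts at 4.26, 4.67 and 3.37 TPM. The 2 genotypes did not overlap at either treatment. Whether the remaining reads come from a shortened transcript was not tested. All 8 cardiomyocyte markers were detected in all 12 hearts, with summed levels from 22716 to 46786 TPM. The lowest of these sums was that of CDDP heart 1, and every other heart was at 30226 TPM or more. CDDP heart 1 also stood apart in neutrophil markers. Their sum over 7 genes was 1120 TPM there against 4.6 to 90.8 TPM in the other 11 hearts.

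The 10 genes were expressed at low levels. In Saline hearts Gsdmd had the highest mean, 10.2 TPM, followed by Pycard at 9.75 TPM and Zbp1 at 7.69 TPM. Ripk1 was at 5.42 TPM, Ripk3 at 3.95 TPM, Casp4 at 3.80 TPM, Mlkl at 3.78 TPM and Casp1 at 3.43 TPM. Il18 at 1.31 TPM and Nlrp3 at 0.56 TPM were the lowest. Neighbours in this order were not apart beyond their spread, since the ranges of 3 hearts overlapped in all 9 neighbouring pairs. In CDDP hearts Casp4, sixth in the Saline order, had the highest mean of the 10 genes, 9.14 TPM, though its range overlapped that of Gsdmd at 8.18 TPM.

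**Figure D1:**
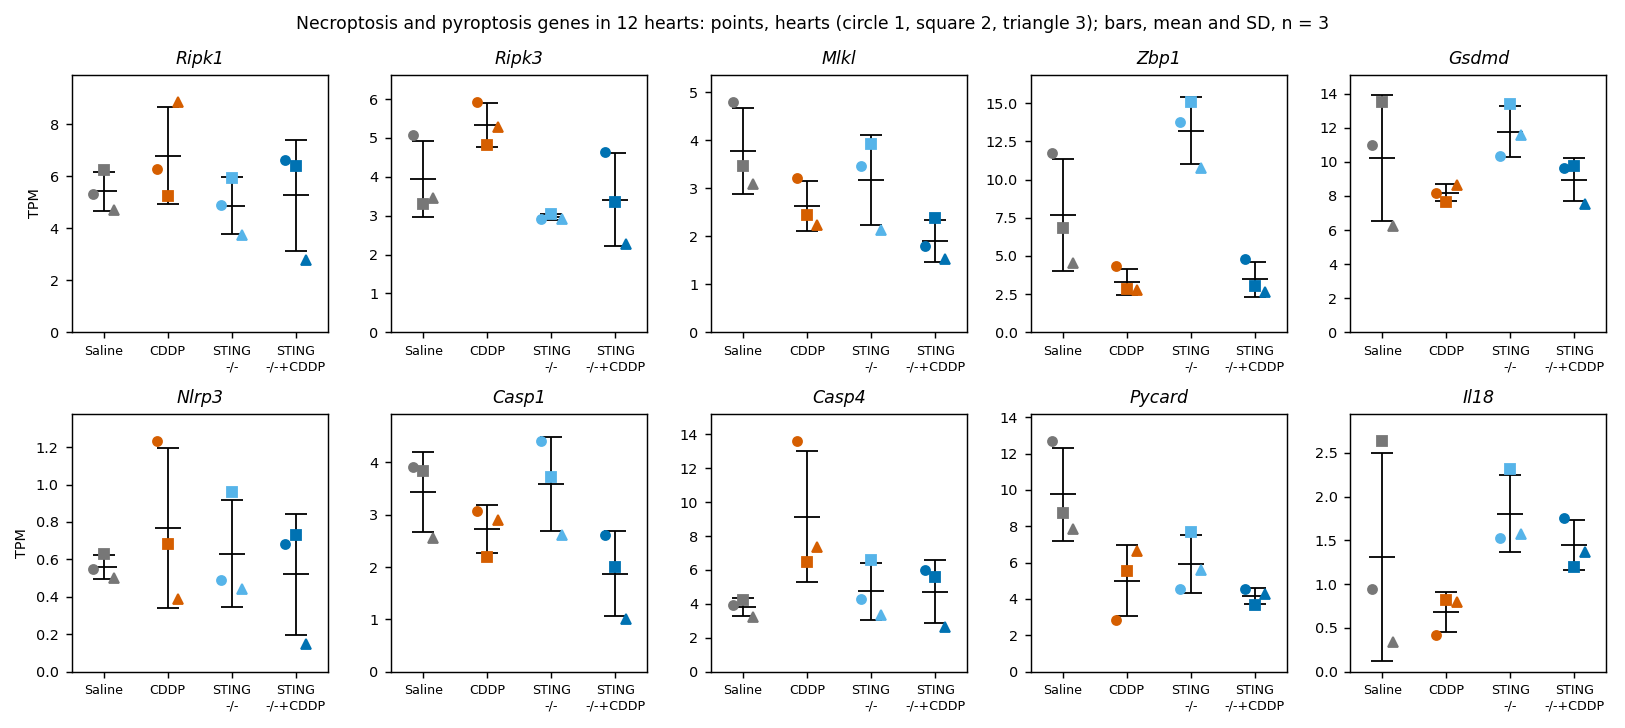
TPM of the 10 genes in each of 12 hearts, 1 panel per gene with its own axis from 0, groups on the horizontal axis, points for hearts (circle 1, square 2, triangle 3), and bars for the mean and SD of 3 hearts. Casp4 is at 6.45 to 13.6 TPM in CDDP hearts against 3.21 to 4.25 TPM in Saline hearts, and Zbp1 is at 2.61 to 4.77 TPM in all 6 hearts given cisplatin, whereas Nlrp3 stays at or under 1.23 TPM in every heart.

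Zbp1, Casp4 and Pycard were described by position and, where a sequence was at hand, by promoter, since these 3 genes carried the calls. Zbp1 lies on the minus strand of GRCm38 at chr2:173206612-173218923, Pycard on the minus strand at chr7:127989708-127993867, and Casp4 on the plus strand at chr9:5308828-5336783. Casp1, at chr9:5298517-5307265 on the same strand, ends 1562 bases before Casp4 starts. Promoter windows from RefSeq (GRCm38.p6), 250 bases before to 50 bases after the annotated start, were at hand for 8 of the 10 genes, in 11 windows. Zbp1 and Gsdmd had no window, so their promoters were not searched. The windows of the neighbours Casp4 (plus strand, chr9:5308599-5308898) and Casp1 (plus strand, chr9:5298267-5298566) and of Pycard (minus strand, chr7:127993818-127994117) are shown because Casp4 rose, Pycard fell and Casp1 was not called. Capitals mark matches to the kappa B consensus, the letters bound by NF-kappa B.
Casp4: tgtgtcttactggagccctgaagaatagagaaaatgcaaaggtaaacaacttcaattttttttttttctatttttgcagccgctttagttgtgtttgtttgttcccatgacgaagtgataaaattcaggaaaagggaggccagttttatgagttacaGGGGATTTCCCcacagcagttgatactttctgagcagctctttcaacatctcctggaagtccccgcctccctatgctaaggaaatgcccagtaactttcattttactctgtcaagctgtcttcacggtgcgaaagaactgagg
Casp1: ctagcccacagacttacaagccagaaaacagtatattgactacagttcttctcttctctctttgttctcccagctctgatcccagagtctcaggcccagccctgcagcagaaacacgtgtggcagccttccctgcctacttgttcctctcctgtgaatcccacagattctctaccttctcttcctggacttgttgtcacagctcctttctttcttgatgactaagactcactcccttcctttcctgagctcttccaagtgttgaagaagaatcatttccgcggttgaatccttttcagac
Pycard: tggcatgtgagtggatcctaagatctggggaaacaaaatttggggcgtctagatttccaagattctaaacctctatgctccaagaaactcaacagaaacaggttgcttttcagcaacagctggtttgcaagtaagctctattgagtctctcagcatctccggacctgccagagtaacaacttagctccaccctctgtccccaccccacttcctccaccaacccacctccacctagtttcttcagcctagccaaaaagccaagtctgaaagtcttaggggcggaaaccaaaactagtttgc

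Both strands of each window were searched for 4 motifs, and a match is a description and neither a binding site nor a cause. The Casp4 window holds 2 overlapping kappa B matches, which form the run GGGGATTTCCC and lie at bases -93 to -84 and -92 to -83 from the start. The kappa B consensus was present in 4.51% of all 32851 promoter windows. A second Casp4 start 11 bases downstream gives a window with the same letters. The Casp1 and Pycard windows hold none of the 4 motifs. The core of the interferon-stimulated response element, a pair of GAAA blocks 2 bases apart, was in 3.44% of all windows, the gamma-activated site TTCNNNGAA in 8.3% and the AP-1 site TGACTCA in 5.2%. Of the other genes, a second Ripk1 window holds the interferon element core and 2 gamma-activated sites, and a second Nlrp3 window holds a kappa B match. Of the 10 genes 4 share their position with another annotated gene, Ripk1 with Serpinb6a, Gm17083 and Gm17084, Mlkl with Gm45712, Pycard with Gm45205 and Il18 with Bco2 and Tex12. No strand setting is stated in the sources used here, and reads of such overlapping genes may not be told apart.

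The first comparison, CDDP against Saline, asks what cisplatin did to these genes in wild-type hearts. Of the 9 tested genes 3 were called, 1 higher and 2 lower. Over all 13815 tested genes 18.9% were called, 8.52% higher and 10.4% lower. The median log2 fold change was -0.24 for the 9 genes and -0.00 for all tested genes. Groups did not overlap for the same 3 genes, 1 higher and 2 lower, where 14.9% of all tested genes were higher and 17.1% lower without overlap. The same 3 genes had an unadjusted p under 0.05, as did 33.9% of all tested genes. In the 2 settings that ended all 3 calls, no filter and these 2 groups alone, their adjusted p ran from 0.0774 to 0.129.

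Among the necroptosis genes, Zbp1, the sensor of Z-form nucleic acids, was the member called. It was at 11.7, 6.80 and 4.53 TPM in Saline hearts and at 4.31, 2.87 and 2.76 TPM in CDDP hearts. All CDDP hearts were below all Saline hearts, by a small gap between Saline heart 3 and CDDP heart 1, and Saline heart 1 was the highest. Zbp1 fell by 0.94 on the log2 scale (standard error 0.29, limma adjusted p = 0.0439), from a mean of 7.69 ± 3.68 to 3.31 ± 0.86 TPM (SD, n = 3 each). Without Saline heart 1 the log2 fold change was -0.62 with an adjusted p of 0.163. The call also ended without Saline heart 2, CDDP heart 2 or 3, any single STING-/- heart or STING-/-+CDDP heart 2, with adjusted p from 0.0534 to 0.112.

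Zbp1 moved beside other interferon-stimulated genes. Of 14 such genes, among them Isg15, Ifit1 and Irf7, 11 were called lower and 0 higher in CDDP hearts, with a median log2 fold change of -1.54. Their summed level was 324 to 626 TPM in Saline hearts and 101 to 165 TPM in CDDP hearts. Macrophage markers moved in the same direction, with 8 of 10 called lower and summed levels of 545 to 738 TPM in Saline and 184 to 334 TPM in CDDP hearts. Of the lymphocyte markers 2 of the 3 tested were called lower, and the 9 listed summed to 4.37 to 22.7 TPM in Saline and 0.79 to 2.04 TPM in CDDP hearts. Endothelial and fibroblast markers had 3 of 6 called lower each. The endothelial markers summed to 472 to 532 TPM in Saline and 305 to 409 TPM in CDDP hearts. The summed fibroblast markers did not fall, at 786 to 1860 TPM in Saline and 973 to 2067 TPM in CDDP hearts. Most of these sums was Dcn, at 920, 1115 and 1967 TPM in CDDP hearts. Of the 6 fibroblast markers 5 had a negative log2 fold change, and the median was -1.16. The part of these cell types in the result was not tested. In whole hearts, fewer cells of a type and less RNA per cell cannot be told apart. The genes whose pattern over the 12 hearts was nearest to Zbp1, by the root mean square difference of centred log2 values, were Fcgr1, an Fc receptor of macrophages and 1 of the 10 markers (0.247), Dhx58, an interferon-inducible RNA sensor (0.276), and Dock2, a regulator of leukocyte migration (0.289). Zbp1 itself had an SD of 0.78 over the hearts on that scale.

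The kinases Ripk1 and Ripk3 and the executioner Mlkl did not pass. Ripk3, the kinase that activates MLKL, was at 5.08, 3.31 and 3.46 TPM in Saline hearts and at 5.92, 4.81 and 5.27 TPM in CDDP hearts. The ranges overlapped only through Saline heart 1, and the log2 fold change was 0.37 (standard error 0.21, limma adjusted p = 0.242). Mlkl was at 4.79, 3.46 and 3.08 TPM in Saline hearts and at 3.21, 2.44 and 2.24 TPM in CDDP hearts, with a log2 fold change of -0.39 (standard error 0.22, adjusted p = 0.239). Here CDDP heart 1 lay inside the Saline range. Ripk1, which links the TNF receptor to survival or death, was at 5.32, 6.22 and 4.71 TPM in Saline hearts and at 6.27, 5.24 and 8.84 TPM in CDDP hearts, with a log2 fold change of 0.26 (adjusted p = 0.553). Its CDDP hearts spread more than its Saline hearts, with an SD of 1.85 against 0.76 TPM.

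Among the pyroptosis genes, Casp4 rose. It was at 3.94, 4.25 and 3.21 TPM in Saline hearts and at 13.6, 6.45 and 7.38 TPM in CDDP hearts. The groups did not overlap, and CDDP heart 1 was well above the other 2. The log2 fold change was 1.02 (standard error 0.32, limma adjusted p = 0.0436), from a mean of 3.80 ± 0.53 to 9.14 ± 3.88 TPM (SD, n = 3 each). CDDP heart 1 is the heart with high neutrophil markers, which summed to 27.6, 44.7 and 1120 TPM over the CDDP hearts from lowest to highest and to 7.28 to 32.3 TPM in Saline hearts. Of the 5 neutrophil markers tested limma called 0, 4 had an unadjusted p under 0.05, and their part in the result was not tested. CDDP heart 1 also had the lowest summed cardiomyocyte markers of all hearts, 22716 TPM, and their part was not tested either. Without that heart the log2 fold change of Casp4 was 0.73 with an adjusted p of 0.133. With arrayWeights, which weight hearts by their fit, its adjusted p was 0.0589. The call also ended without any single Saline heart, CDDP heart 3, STING-/- heart 1 or STING-/-+CDDP heart 2, with adjusted p from 0.0552 to 0.118. The genes nearest to Casp4 in pattern were Ifitm2, an interferon-induced membrane protein (0.187), Polr2a, the large subunit of RNA polymerase II (0.201), and Foxp1, a transcription factor (0.203), against an SD of 0.52 for Casp4.

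Casp1, the gene beside it, did not follow. Its level was 3.91, 3.84 and 2.55 TPM in Saline hearts and 3.08, 2.20 and 2.89 TPM in CDDP hearts. The groups overlapped, and the log2 fold change was -0.24 (standard error 0.25, limma adjusted p = 0.526). The ratio of Casp4 to Casp1 in TPM, a quantity chosen after the values were seen and given without a test, was 1.01, 1.11 and 1.26 in Saline hearts and 4.41, 2.93 and 2.55 in CDDP hearts. In STING-/- hearts it was 0.97, 1.78 and 1.29, and in STING-/-+CDDP hearts 2.30, 2.78 and 2.58. The ratio was thus higher in all 6 hearts given cisplatin than in the 6 others. Between the groups of wild-type hearts the means differed more in Casp4 (3.80 against 9.14 TPM), and between those of STING-/- hearts more in Casp1 (3.58 against 1.87 TPM).

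Pycard, which encodes the adaptor ASC, fell. It was at 12.7, 8.75 and 7.84 TPM in Saline hearts and at 2.86, 5.52 and 6.66 TPM in CDDP hearts. The groups did not overlap, with CDDP heart 1 the lowest and Saline heart 1 the highest. The log2 fold change was -0.87 (standard error 0.27, limma adjusted p = 0.0426), from a mean of 9.75 ± 2.57 to 5.01 ± 1.95 TPM (SD, n = 3 each). It was -0.58 without CDDP heart 1 (adjusted p = 0.122) and -0.68 without Saline heart 1 (adjusted p = 0.159). The call also ended without Saline heart 2 or 3, CDDP heart 2, STING-/- heart 3 or any single STING-/-+CDDP heart, with adjusted p from 0.0539 to 0.0588, and with the replicate number as a block, at 0.0689. Red cell genes moved in the same direction as Pycard between these groups, as all 5 erythroid markers were called lower in CDDP hearts. Their summed levels were 4146 to 9317 TPM in Saline and 42.0 to 1271 TPM in CDDP hearts. The marker Hbb-bs was at 574, 58.2 and 15.0 TPM in CDDP hearts and at 2788, 1949 and 4181 TPM in Saline hearts. In both groups it was highest in the heart with the lowest Pycard. The part of the red cell genes in the result was not tested. With hemoglobin and mitochondrially encoded genes removed before scaling, the log2 fold change of Pycard was -0.93 (adjusted p = 0.0269). The macrophage markers given for Zbp1 also moved in the same direction as Pycard, and their part was not tested. The genes nearest in pattern were Stk39, a kinase of ion transport regulation (0.208), Trim55, a ubiquitin ligase of muscle (0.213), and Phf24 (0.214), against an SD of 0.49 for Pycard.

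**Figure D2:**
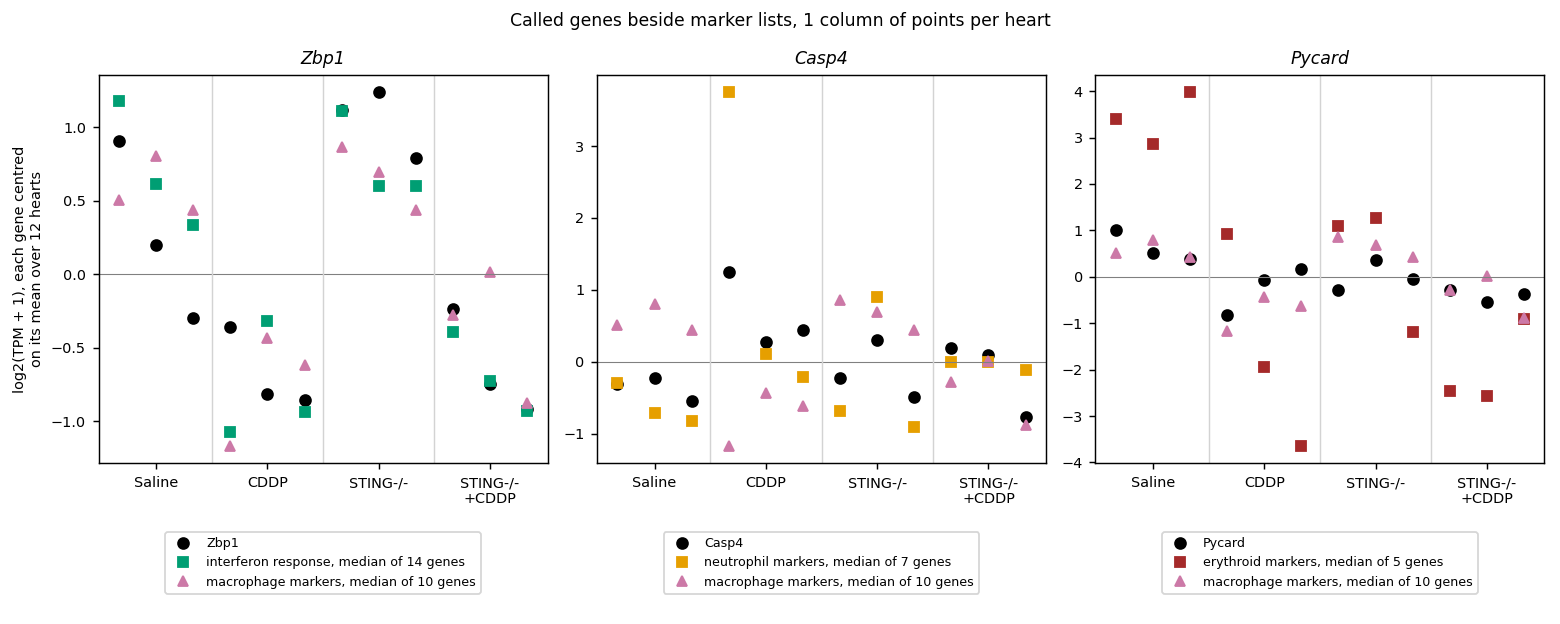
Each panel shows 1 called gene (black) with the median of 2 marker lists, as log2(TPM + 1) centred on the mean over 12 hearts (vertical axis), with hearts 1 to 3 of each group from left to right. Zbp1 is below its mean in all 6 hearts given cisplatin, as are the interferon response genes, CDDP heart 1 is highest for Casp4 and for neutrophil markers, and the erythroid markers are highest in Saline hearts, the group where Pycard is highest.

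The pore-forming Gsdmd and the cytokine Il18 did not pass in CDDP hearts. Gsdmd was at 10.97, 13.5 and 6.23 TPM in Saline hearts and at 8.20, 7.67 and 8.67 TPM in CDDP hearts, so that CDDP hearts lay inside the Saline range (log2 fold change -0.23, limma adjusted p = 0.512). Il18 was at 0.95, 2.63 and 0.34 TPM in Saline hearts and at 0.42, 0.82 and 0.80 TPM in CDDP hearts (log2 fold change -0.34, adjusted p = 0.471). Saline hearts differed among themselves in Il18 by more than the group means did. Nlrp3, the inflammasome sensor, was at 0.55, 0.63 and 0.50 TPM in Saline hearts and at 1.23, 0.68 and 0.39 TPM in CDDP hearts. The highest value of all 12 hearts was again in CDDP heart 1, and the groups overlapped (two-sided exact permutation test, p = 0.6). This test of 3 against 3 hearts cannot give a p under 0.10.

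The second comparison, STING-/-+CDDP against STING-/-, asks the same of hearts without STING. Of the 9 tested genes 1 was called, Zbp1, against 0.934% of all tested genes called and 0.68% called lower. The median log2 fold change was -0.36 for the 9 genes and -0.11 for all tested genes. Groups did not overlap for 3 genes, all lower, where 16.9% of all tested genes were lower without overlap.

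Zbp1 was at 13.7, 15.1 and 10.8 TPM in STING-/- hearts and at 4.77, 3.05 and 2.61 TPM in STING-/-+CDDP hearts. The groups were far apart, and the highest treated heart was below the lowest untreated one by more than the spread within either group. Zbp1 fell by 1.68 on the log2 scale (standard error 0.29, limma adjusted p = 0.0248), from a mean of 13.2 ± 2.19 to 3.48 ± 1.14 TPM (SD, n = 3 each). Leaving out any single heart of these 2 groups ended the call, with log2 fold changes from -1.88 to -1.54 and adjusted p from 0.0532 to 0.124, and so did testing without the filter on low values (adjusted p = 0.0763). The interferon response genes moved with it, as all 14 were lower without overlap and 6 of them were called, with a median log2 fold change of -1.51 and summed levels of 372 to 582 TPM against 114 to 169 TPM. Of the 10 macrophage markers all had a negative log2 fold change, 8 were lower without overlap and 3 were called, with summed levels of 529 to 766 TPM against 223 to 442 TPM, and their part was not tested.

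Casp4 was at 4.27, 6.61 and 3.37 TPM in STING-/- hearts and at 6.01, 5.56 and 2.61 TPM in STING-/-+CDDP hearts. The groups overlapped almost entirely, and the log2 fold change was -0.03 (95% interval -0.72 to 0.66, limma adjusted p = 0.985). Its sign turned to 0.08 with scaling by the median of ratios, 0.14 with quantile normalization and 0.18 with arrayWeights, and to 0.20 without STING-/- heart 2 and 0.28 without STING-/-+CDDP heart 3. Neutrophil markers in these groups summed to 4.6 to 90.8 TPM and 37.3 to 48.8 TPM. The highest sum was that of STING-/- heart 2, which also had the highest Casp4 of its group, and the part of these markers was not tested.

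Casp1 was at 4.40, 3.72 and 2.62 TPM in STING-/- hearts and at 2.61, 2.00 and 1.01 TPM in STING-/-+CDDP hearts. The groups were only just apart, at 2.62 against 2.61 TPM, and the log2 fold change was -0.69 (standard error 0.25, unadjusted p = 0.0157 and adjusted p = 0.230 by limma). Mlkl was at 3.47, 3.92 and 2.12 TPM without and at 1.80, 2.37 and 1.52 TPM with cisplatin, with a log2 fold change of -0.51 (unadjusted p = 0.0396, adjusted p = 0.341 by limma). Gsdmd was at 10.4, 13.4 and 11.6 TPM without and at 9.61, 9.76 and 7.50 TPM with cisplatin, again without overlap, with a log2 fold change of -0.36 (adjusted p = 0.531). These 3 genes thus had lower means with cisplatin in hearts without STING, and none passed the adjusted threshold.

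The remaining genes overlapped between the STING-/- groups. Pycard was at 4.55, 7.69 and 5.57 TPM in STING-/- hearts and at 4.55, 3.67 and 4.25 TPM in STING-/-+CDDP hearts (log2 fold change -0.41, limma adjusted p = 0.552). Ripk3 was at 2.92, 3.05 and 2.92 TPM and then at 4.64, 3.35 and 2.26 TPM (0.12, adjusted p = 0.845). Ripk3 was thus tight in STING-/- hearts, with an SD of 0.08 TPM, and scattered in STING-/-+CDDP hearts, with an SD of 1.19 TPM. Ripk1 was at 4.91, 5.93 and 3.74 TPM and then at 6.60, 6.39 and 2.79 TPM (0.04, adjusted p = 0.967). Il18 was at 1.53, 2.32 and 1.57 TPM and then at 1.76, 1.2 and 1.37 TPM (-0.20, adjusted p = 0.825). Nlrp3 was at 0.49, 0.96 and 0.44 TPM and then at 0.68, 0.73 and 0.15 TPM (two-sided exact permutation test, p = 0.7). STING-/-+CDDP heart 3 had the lowest value of its group for 8 of the 10 genes, Pycard and Il18 being the exceptions. This heart also had the fewest genes above 0, 19680. Without it the median log2 fold change of all tested genes in this comparison went from -0.107 to -0.0169. The low values are thus not shown to be particular to these genes, and the share over all genes was not counted.

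**Figure D3:**
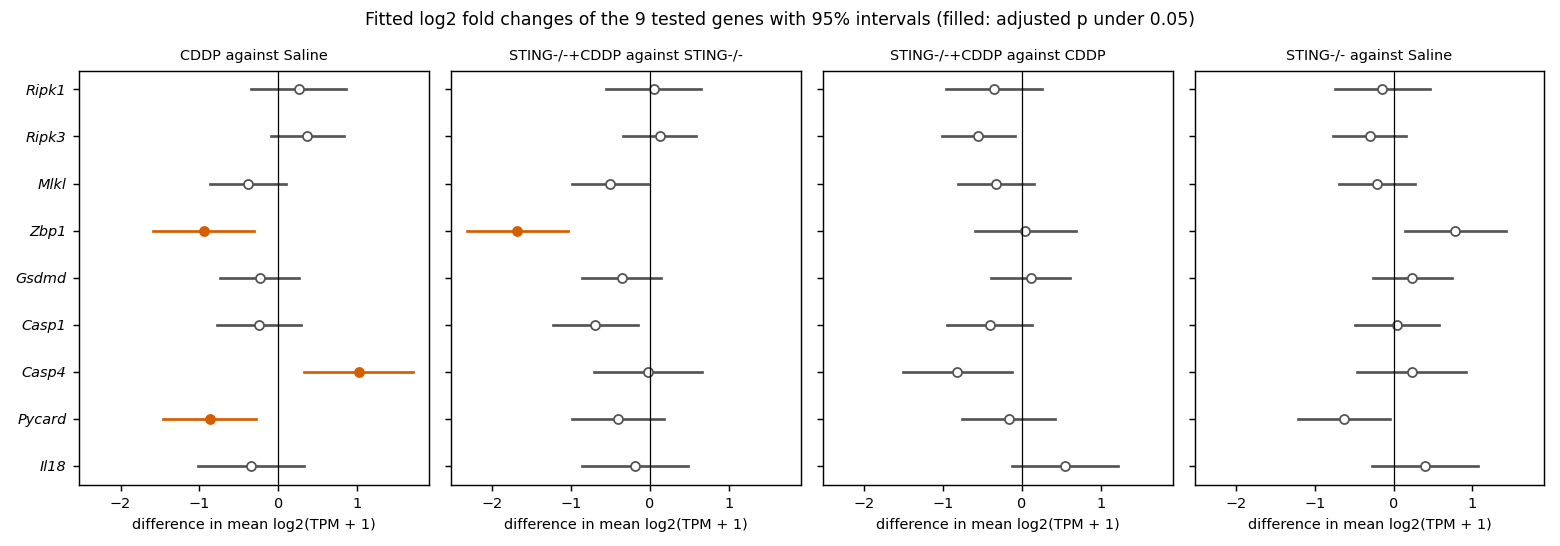
Log2 fold changes of the 9 tested genes in 4 comparisons as points with 95% intervals (horizontal axis, difference in mean log2(TPM + 1)), filled where the adjusted p was under 0.05. The filled points are Zbp1, Casp4 and Pycard in CDDP against Saline and Zbp1 in STING-/-+CDDP against STING-/-, and the interval of Casp4 is above 0 in the first comparison and reaches from -0.72 to 0.66 in the second.

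The third comparison, STING-/-+CDDP against CDDP, asks how hearts given cisplatin differed by genotype. It shares the CDDP hearts with the first comparison and the STING-/-+CDDP hearts with the second, so the 3 are not independent. By limma 0 of the 9 tested genes were called, against 1.22% of all tested genes (0.362% higher and 0.854% lower), and 2 had an unadjusted p under 0.05, as 19.8% of all tested genes had. The median log2 fold change was -0.33 for the 9 genes and -0.09 for all tested genes. Groups did not overlap for 2 genes that were lower and 1 that was higher, where 15.6% of all tested genes were lower and 7.12% higher without overlap.

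Ripk3 and Casp4 were the 2 genes without overlap that were lower. Ripk3 in STING-/-+CDDP hearts (2.26 to 4.64 TPM) was below CDDP hearts (4.81 to 5.92 TPM), with a log2 fold change of -0.55 (standard error 0.21, 95% interval -1.01 to -0.09, unadjusted p = 0.0228 and adjusted p = 0.178 by limma). Casp4 in STING-/-+CDDP hearts (2.61 to 6.01 TPM) was below CDDP hearts (6.45 to 13.6 TPM), with a log2 fold change of -0.82 (standard error 0.32, 95% interval -1.51 to -0.13, unadjusted p = 0.0242 and adjusted p = 0.184 by limma). The log2 fold change of Casp4 was -0.52 without CDDP heart 1 and also -0.52 without STING-/-+CDDP heart 3, and -0.47 with arrayWeights. That of Ripk3 was -0.35 without STING-/-+CDDP heart 3. Il18, at 1.2 to 1.76 TPM in STING-/-+CDDP against 0.42 to 0.82 TPM in CDDP hearts, was the gene higher without overlap, with a log2 fold change of 0.54 (adjusted p = 0.354 by limma). It reached 1 TPM in 7 hearts, those of both STING-/- groups and Saline heart 2. Il18 thus passed the filter only through the hearts without STING, where it was higher, and its lack of overlap is no support for a difference.

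Zbp1 had nearly the same level in both groups given cisplatin, with a log2 fold change of 0.04 (95% interval -0.60 to 0.68, limma adjusted p = 0.957). Pycard was at -0.17 (95% interval -0.75 to 0.42, adjusted p = 0.777) and Gsdmd at 0.11 (adjusted p = 0.835). Ripk1 was at -0.36 (adjusted p = 0.510), Mlkl at -0.33 (adjusted p = 0.439) and Casp1 at -0.41 (adjusted p = 0.384). These intervals leave room for sizeable differences in either direction, and a missed threshold does not show equal levels. Nlrp3 overlapped between these groups (two-sided exact permutation test, p = 0.6).

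The fourth comparison, STING-/- against Saline, asks whether loss of STING alone moved these genes. By limma 0 of the 9 tested genes were called, against 0.0724% of all tested genes (0.029% higher and 0.0434% lower), each with an adjusted p of 1. The median log2 fold change was 0.04 for the 9 genes and 0.00 for all tested genes. An unadjusted p under 0.05 was found for 2 of the 9 genes and for 3.69% of all tested genes. Zbp1 was 1.72-fold higher in mean TPM in STING-/- hearts (log2 fold change 0.78, standard error 0.29, unadjusted p = 0.0210 by limma), with Saline heart 1 inside the STING-/- range. Pycard was 1.64-fold lower (log2 fold change -0.63, standard error 0.27, unadjusted p = 0.0369 by limma), without overlap. Ripk3 was lower without overlap as well, with a log2 fold change of -0.30 (standard error 0.21, limma adjusted p = 1). Of all tested genes 4.88% were lower without overlap. Summed erythroid markers differed here too, at 4146 to 9317 TPM in Saline and 264 to 1465 TPM in STING-/- hearts, and their part in the result of Pycard was not tested. Nlrp3 overlapped between the untreated groups (two-sided exact permutation test, p = 1).

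The test of the difference in response, the interaction of cisplatin and genotype, called 0 of the 9 genes by limma, against 0.00724% of all tested genes. An unadjusted p under 0.05 was found for 1 of the 9 genes and for 11.7% of all tested genes. The gene was Casp4, with an interaction of -1.05 on the log2 scale (standard error 0.45, 95% interval -2.02 to -0.07, unadjusted p = 0.0380 and adjusted p = 0.400). The rise of Casp4 in wild-type hearts and its near-equal means in STING-/- hearts were therefore not shown to differ. For Zbp1 the interaction was -0.74 (standard error 0.41, limma adjusted p = 0.507), so its larger fall in STING-/- hearts was not shown to differ from that in wild-type hearts either. For Pycard it was 0.46 (standard error 0.38, adjusted p = 0.654).

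Other genes of these pathways were taken from 6 lists with 65 genes, of which 56 were tested. In CDDP against Saline 9 rose and 3 fell, against 8.52% of all tested genes called higher and 10.4% called lower, shares that the counts in the single lists are to be read against as well. Their median log2 fold change was 0.19 against -0.00 for all tested genes. The count of 12 was 2 when these 2 groups alone were fitted, 6 without the filter, 3 without Saline heart 1, 6 without Saline heart 3 and 6 without CDDP heart 3. In the TNF receptor complex, which decides between survival signalling and death through RIPK1, 4 of 17 tested genes rose and 0 fell. They were Tnfaip3, the deubiquitinase A20, Birc2, the ubiquitin ligase cIAP1, Cyld, a deubiquitinase of RIPK1, and Rnf31, the catalytic subunit of the linear ubiquitin ligase. The log2 fold changes of Birc2, Cyld and Rnf31 were 0.87, 0.70 and 0.53 (limma adjusted p = 0.00960, 0.0268 and 0.0441). Tnfaip3 was at 2.72, 1.98 and 1.26 TPM in Saline hearts and at 12.9, 3.84 and 6.02 TPM in CDDP hearts. The groups did not overlap, with CDDP heart 1 again highest, and the log2 fold change was 1.41 (standard error 0.37, limma adjusted p = 0.0223).

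Among the checkpoints of necroptosis, 1 of 10 genes rose, Tbk1, a kinase downstream of STING that also restrains RIPK1 (log2 fold change 0.56, limma adjusted p = 0.0394). Of the 6 genes of the ESCRT-III membrane repair machinery, which sheds damaged membrane after MLKL or gasdermin D pores, Chmp2a and Chmp4b rose, by 0.50 (adjusted p = 0.0117) and 0.54 (adjusted p = 0.0294) on the log2 scale. Among 8 tested inflammasome sensors and regulators Nek7 and Tlr4 rose. Nek7, the kinase that NLRP3 needs to assemble, was at 19.1, 28.1 and 19.8 TPM in Saline hearts and at 48.3, 39.8 and 48.7 TPM in CDDP hearts. The groups were well apart, with a log2 fold change of 1.01 (standard error 0.17, adjusted p = 0.00273). Tlr4, the lipopolysaccharide receptor of the cell surface, was at 5.30, 6.36 and 5.23 TPM in Saline and at 9.39, 11.7 and 12.6 TPM in CDDP hearts (log2 fold change 0.88, adjusted p = 0.0197). All CDDP hearts were above all Saline hearts for Tlr4.

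The guanylate-binding proteins, interferon-inducible GTPases that help caspase-11 reach lipopolysaccharide, included genes that fell where Casp4 rose. In the list of gasdermin and noncanonical genes, 2 of 9 fell and 0 rose in CDDP hearts. Gbp3 was at 25.6, 13.2 and 11.4 TPM in Saline hearts and at 6.37, 6.86 and 6.08 TPM in CDDP hearts (log2 fold change -1.17, standard error 0.30, limma adjusted p = 0.0216). Gbp7 was lower by 1.04 on the log2 scale (adjusted p = 0.0339). Of 6 tested genes of the IL-1 family 1 fell, Il18bp, the secreted inhibitor of IL-18 (log2 fold change -0.68, adjusted p = 0.0207). For all 3 genes every CDDP heart was below every Saline heart.

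In STING-/- hearts cisplatin went with 1 call among these 56 genes, where 0.934% of all tested genes were called. This was Gbp3, at 24.8, 12.7 and 17.0 TPM without and 6.53, 4.63 and 3.55 TPM with cisplatin (log2 fold change -1.68, standard error 0.30, limma adjusted p = 0.0278). By an unadjusted p under 0.05 there were 9 genes, against 13.5% of all tested genes. The call of Gbp3 was lost without the filter, or without any single heart of these 2 groups. The 9 genes that rose in wild-type hearts had log2 fold changes here from -0.19 for Tbk1 to 0.37 for Tnfaip3, and none was called. They were picked by passing the test in wild-type hearts, a choice that by itself favours smaller values in the other genotype. In STING-/-+CDDP against CDDP hearts 1 of the 56 genes was called, against 1.22% of all tested genes. This was Tlr4, at 4.98, 6.69 and 3.29 TPM against 9.39, 11.7 and 12.6 TPM (log2 fold change -1.06, standard error 0.22, limma adjusted p = 0.0469). The groups did not overlap, and the median of the 56 genes was -0.31 against -0.09 for all tested genes. That call ended with a pseudocount of 0.1, without the filter, with the compared groups alone, with arrayWeights and with the replicate number as a block, and with 1 heart left out the count was 2 without Saline heart 2 or CDDP heart 2 and 0 for each other heart. Loss of STING alone gave 0 calls by limma, against 0.0724% of all tested genes. At an unadjusted p under 0.05 it gave 0, against 3.69% of all tested genes.

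The interaction called 0 of the 56 genes by limma, against 0.00724% of all tested genes. An unadjusted p under 0.05 was found for 11 of the 56 genes and for 11.7% of all tested genes. The interaction was -0.82 for Nek7 (standard error 0.23, limma adjusted p = 0.321), -1.04 for Tlr4 (standard error 0.32, adjusted p = 0.321) and -1.04 for Tnfaip3 (standard error 0.52, adjusted p = 0.464). These genes were picked by their rise in wild-type hearts, which is part of the interaction, so the choice favours negative values. The median interaction was -0.34 over the 56 genes and -0.10 over all tested genes. The median over all tested genes was 0.0026 with the median of ratios and -0.0156 without STING-/-+CDDP heart 3. That of the 56 genes was not computed under these settings. A weaker response of these genes in STING-/- hearts was therefore not shown gene by gene.

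**Figure D4:**
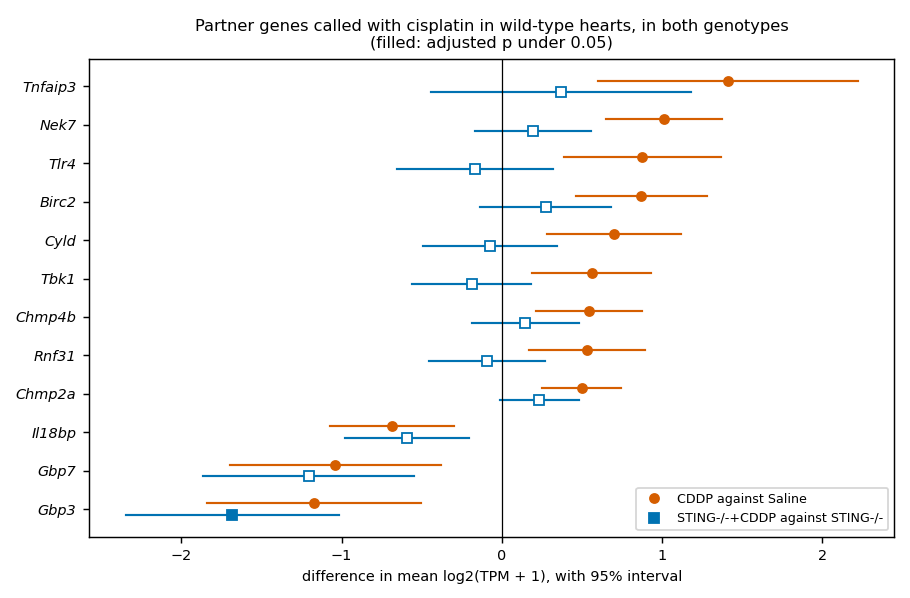
Log2 fold changes (horizontal axis, difference in mean log2(TPM + 1), with 95% intervals) of the 12 partner genes called in CDDP against Saline, shown for wild-type (circles) and STING-/- hearts (squares), filled where the adjusted p was under 0.05. The 9 genes at the top are above 0 in wild-type hearts and between -0.19 and 0.37 in STING-/- hearts, while Gbp3, Gbp7 and Il18bp are below 0 in both. All 12 genes were picked by the wild-type comparison, which favours larger changes there.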

How the data were processed

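RNA from 12 hearts was sequenced, 3 in each of 4 groups set by the labelled genotype and treatment. For every gene, the authors deposited TPM in each heart. The submitters' processing notes name fastp, HISAT, RSEM and GRCm38.p5, without versions, and no scaling between hearts is stated. Means over groups, in 4 more columns, were left aside. TPM give no read counts, so depth is unknown and count methods were not used.

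TPM were analysed as log2(TPM + 1) with limma 3.58.1 in R 4.3.3 (a mean per group, 8 residual degrees of freedom, eBayes with trend), in 5 contrasts, two-sided, with Benjamini-Hochberg adjustment over 13815 genes and a threshold of 0.05. A mean log2 fold change had a median standard error of 0.216. The fit was also run on simulated data with changes larger than those of the called members, which does not bear on calls near the threshold. Nlrp3 was compared by exact permutation. Positions came from GENCODE M21 (GRCm38) and promoters from RefSeq.

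The members and lists were chosen with earlier results of these data known. Named are all 10 members, list genes called in a contrast, with values for the 3 largest changes, and the 3 genes nearest in pattern to each called member, pseudogenes and genes without a symbol left out. Values of a few other called list genes are given as well, and the ratio of Casp4 to Casp1 was chosen after its values were seen. Alternatives changed the pseudocount (0.1), the filter (none, or a TPM of 5), the hearts fitted (the compared groups alone, or each heart left out), the scaling (median of ratios, quantiles, or TPM without mitochondrially encoded and hemoglobin genes), the variance prior (no trend), weights (arrayWeights) and the block (replicate number). The p-values measure the spread between these hearts of 1 experiment. Python 3.11.15 with pandas 2.3.3 and matplotlib 3.10.9 was used for tables and figures.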

Additional observations from a re-analysis of the deposited data

How the results depend on the processing

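Of the 4 calls among the 10 genes, each kept its direction under every alternative run. In CDDP against Saline the count of 3 was 0 without a filter, 0 with only the compared groups, and between 0 and 2 with a heart left out. In STING-/-+CDDP against STING-/- the count of 1 was 0 without a filter and between 0 and 1 with a heart left out. The partner genes called in CDDP against Saline, 12, were 6 without a filter, 2 with only the compared groups, 19 with the median of ratios and between 3 and 13 with a heart left out. In STING-/-+CDDP against CDDP their count of 1 was 0 with a pseudocount of 0.1, no filter, only the compared groups, arrayWeights or the replicate block, 2 with a filter at a TPM of 5, 6 with the median of ratios or quantile normalization, 3 without mitochondrial and hemoglobin genes, and between 0 and 2 with a heart left out. In STING-/-+CDDP against STING-/- it was 0 without a filter, 3 with arrayWeights and between 0 and 1 with a heart left out. The cause was not tested, beyond the fewer hearts and the more genes tested that some alternatives bring.

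Signs turned for values that were not called. Casp4 in STING-/-+CDDP against STING-/- went to 0.0819 with the median of ratios, 0.14 with quantile normalization and 0.18 with arrayWeights. With arrayWeights the interaction went to -0.0294 for Il18, 0.0916 for Mlkl, 0.0468 for Ripk1 and 0.0356 for Ripk3. With a heart left out, CDDP against Saline ran from -0.67 to 0.0464 for Il18, and STING-/-+CDDP against CDDP from -0.46 to 0.0360 for Pycard and from -0.16 to 0.20 for Zbp1. STING-/- against Saline ran from -0.11 to 0.20 for Casp1, -0.0509 to 0.45 for Gsdmd and -0.27 to 0.0029 for Ripk1. STING-/-+CDDP against STING-/- ran from -0.20 to 0.28 for Casp4, -0.13 to 0.37 for Ripk1 and -0.0736 to 0.32 for Ripk3. The interaction ran from -0.34 to 0.16 for Gsdmd, -0.24 to 0.48 for Il18, -0.32 to 0.0119 for Mlkl and -0.39 to 0.11 for Ripk1.

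Over all tested genes, calls in CDDP against Saline went from 2610 to between 822 with only the compared groups and 3904 with quantile normalization, and to between 1241 and 2548 with a heart left out. In STING-/-+CDDP against CDDP they went from 168 to between 12 without a filter and 671 with quantile normalization, which also moved the share of higher calls from 29.8% to 46.8%, and to between 11 and 388 with a heart left out. In STING-/-+CDDP against STING-/- they went from 129 to between 46 without a filter and 613 with arrayWeights, and to between 15 and 203 with a heart left out, and quantile normalization moved the share of higher calls from 27.1% to 55.9% and the median of all genes from -0.11 to 0.02. Hearts with the same number were not paired in the main fit. A correlation of deviations over 0.1 was found in 4 of 18 such pairs and in 11 of 36 pairs with different numbers. Of the 12 hearts 3 correlated best with their own number. With the replicate block 2 of the 10 genes were called in CDDP against Saline, Zbp1 and Casp4. Mlkl, Casp1 and Il18 gave no value under the filter at a TPM of 5. Depth is unknown, so no precision can be given for low values.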

Other observations

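Genes of the IL-1 family and inflammasome sensors outside the tested set were close to 0 in most hearts. Il1rn, the IL-1 receptor antagonist, reached 2.5 TPM in CDDP heart 1 and 2.37 TPM in STING-/- heart 2, without cisplatin. Il18rap, a chain of the IL-18 receptor, reached 1.29 TPM in CDDP heart 1 against 0.42 TPM in the next highest heart. Mefv, the sensor pyrin, was listed at 0 in 5 hearts and reached 0.89 TPM in CDDP heart 1, with 0.25 TPM next.

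Among tested genes of this family, Il1r2, a decoy receptor found on neutrophils, was at 41.2, 1.48 and 1.66 TPM in CDDP hearts and at 0.08, 0.19 and 0.15 TPM in Saline hearts. Il1b was at 10.7, 0.36 and 0.92 TPM in CDDP hearts and at 1.40, 0.64 and 0.26 TPM in Saline hearts. In both genes CDDP heart 1, the heart with the highest neutrophil markers, held the highest value of the 12 hearts. The next highest was STING-/- heart 2, a heart without cisplatin, at 3.58 TPM for Il1r2 and 4.54 TPM for Il1b. These genes were named after their values were seen.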
